A study of Mus musculus with 24 samples.

Results

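The transcripts of mitochondrial ribosomal proteins were followed in mouse ventricles before and after the first postnatal month, in hearts with and without executioner caspases. The genes were chosen by name: every probe set that the platform annotation gives to a single gene whose symbol starts with Mrpl or Mrps was taken, and the brightest one over all 24 arrays stood for its gene. This gave 74 genes of the 18819 tested, 46 with a large-subunit name (Mrpl) and 28 with a small-subunit name (Mrps), spread over 17 chromosomes. No measured difference enters this rule, although the genes were chosen with earlier results of these data known. Another 4 genes of the family, Mrpl24, Mrpl43, Mrpl53 and Mrps6, were seen only by probe sets that also name a second gene, and they are described apart.

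Whole-transcript Affymetrix arrays were hybridised with ventricle RNA of C57/Bl6 mice of either genotype, WT or KO, taken as newborns or at P30, with 6 arrays in each of the 4 groups. The annotation gives newborn mice an age of 1 to 2 days and P30 mice 30 days, while the Methods give slightly different ranges. KO mice lacked caspase-7 in every tissue and carried a floxed caspase-3 gene deleted by Nkx2.5::Cre, a driver active from the start of cardiac commitment, so that other cells of the ventricle, such as fibroblasts, can keep caspase-3. Each group was planned with equal numbers of males and females, but the sex of each sample is not given. The caspase-3 and caspase-7 transcripts are not analysed here, so the genotype of each array rests on its annotation. The Methods describe 6 hearts per group, while the annotation only numbers the arrays, and the p-values measure the spread between them. The newborn arrays numbered 4 stood against their annotation in one gene used below: Myc was 8.41 on newborn WT array 4, inside the range of the other newborn KO arrays (7.99 to 8.54), and 7.06 on newborn KO array 4, inside that of the other newborn WT arrays (6.98 to 7.41). Whether these arrays were exchanged was not tested. The family counts with age and the genotype results that rest on these arrays are also given without both, but other results are not.

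Mitochondria keep their own ribosome, which descends from that of a bacterium and translates the few messages of mitochondrial DNA, all of them for subunits of the respiratory chain and ATP synthase. Its ribosomal RNAs come from mitochondrial DNA, whereas all of its proteins are encoded in the nucleus, made in the cytosol and imported. Some of these proteins have bacterial homologues, and others were added in the mitochondrial lineage. In the heart, which draws most of its ATP from oxidative phosphorylation, human variants in several of these genes cause cardiomyopathy.

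Since the nuclear genes of this particle have no common locus, the sequences around their starts were read first. RefSeq (GRCm38.p6) held a promoter for 65 of the 74 genes, from 250 bases before to 50 bases after the annotated start. Those of 6 genes that the results below turn on are shown over 130 bases before and 20 after the start, with the letters of 2 motifs in capitals: a pair of GCGC blocks with any 2 bases between them, the palindrome bound by NRF1, and CCGGAAG or its reverse complement CTTCCGG, the core bound by ETS factors such as GABPA. Mrpl14 (chr17:45686219-45686368 on the + strand), Mrps21 (chr3:95871495-95871644 on the - strand) and Mrpl44 (chr1:79775888-79776037 on the + strand) were among the genes that rose most with age. Mrpl52 (chr14:54426779-54426928 on the + strand) and Mrps10 (chr17:47369067-47369216 on the + strand) were the ones that fell. Mrps12 (chr7:28741802-28741951 on the - strand) was the 1 gene of 74 called between genotypes, at P30, beside 1.02% of all genes. That call was close to the threshold and was lost in many of the other settings tried.
Mrpl14: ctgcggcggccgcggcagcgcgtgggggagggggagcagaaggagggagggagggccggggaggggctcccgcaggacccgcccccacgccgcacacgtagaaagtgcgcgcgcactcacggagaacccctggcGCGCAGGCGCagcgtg
Mrps21: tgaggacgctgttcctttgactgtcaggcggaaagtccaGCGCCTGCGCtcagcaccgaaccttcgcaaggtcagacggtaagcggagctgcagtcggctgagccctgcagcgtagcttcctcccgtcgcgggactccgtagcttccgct
Mrpl44: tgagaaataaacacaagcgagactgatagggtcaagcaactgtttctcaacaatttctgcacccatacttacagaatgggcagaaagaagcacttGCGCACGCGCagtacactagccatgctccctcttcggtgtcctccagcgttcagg
Mrpl52: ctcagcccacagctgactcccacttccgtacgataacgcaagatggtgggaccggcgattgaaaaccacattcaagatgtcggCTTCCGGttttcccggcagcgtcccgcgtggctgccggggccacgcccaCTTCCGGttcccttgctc
Mrps10: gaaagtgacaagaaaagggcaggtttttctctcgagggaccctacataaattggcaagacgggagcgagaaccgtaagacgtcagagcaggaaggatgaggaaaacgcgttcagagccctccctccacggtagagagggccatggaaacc
Mrps12: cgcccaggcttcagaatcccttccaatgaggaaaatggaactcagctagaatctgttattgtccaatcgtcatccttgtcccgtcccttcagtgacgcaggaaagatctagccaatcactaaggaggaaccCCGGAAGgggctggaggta

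The NRF1 letters stood close to the start in Mrpl14 and Mrpl44 and farther upstream in Mrps21, and the ETS letters appeared in both orientations, with a pair of copies in Mrpl52. Mrps10 held neither motif in this stretch. Both strands were searched over the full promoters, and a match was counted whether or not it shared bases with the other motif. The ETS letters were found in 23 of 65 promoters (35.4%), against 12.6% of the 14749 genes tested that have a promoter in the same table. The NRF1 letters were found in 14 of 65 (21.5%), against 9.76%. The letters CCAAT, read by NF-Y, were found in 26 of 65 promoters beside 38.3% elsewhere, TATAAA, the letters of a TATA box, was found in 6.15% against 12.3%, and the median GC content was 58.0% against 57.7%. These matches describe letters in a window and were not tested as binding sites.

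Most of the family rose between birth and P30 in WT hearts. Of the 74 genes, 56 were higher and 2 lower at P30 (limma, adjusted p under 0.05 over all genes tested; after median centring 63 higher and 0 lower), whereas 19.2% of all genes tested were higher and 27.9% lower. The median difference on the log2 scale was 0.43, a 1.35-fold rise, beside a median of 0.00 over all genes, and single genes ranged from -0.24 to 1.01. The groups did not overlap, with every P30 WT array above every newborn WT array, for 40 of the 74, against 11.5% of all genes, and 0 genes lay wholly below, against 18.2%. The balance of rises and falls over all genes depended on scaling, with 3612 higher and 5242 lower as deposited and 5027 higher and 4557 lower after median centring of the arrays. All 74 genes were brighter than the 30th percentile of genes, and among the 13173 genes above it 3199 rose and 5234 fell. Genes with very long coding sequences, whose signal can follow RNA quality, also moved with age, with 20 of 24 higher and 1 lower in WT (median 0.54) and 14 higher and 1 lower in KO hearts (median 0.26), and their part in the rise of the family was not tested. Without the newborn arrays numbered 4, 53 members were higher and 2 lower in WT and 52 higher and 2 lower in KO hearts.

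The largest rise belonged to Mrpl14, a conserved protein of the large subunit. Its signal in newborn WT hearts had a lowest value of 7.87, a median of 7.93 and a highest value of 7.99, and in P30 WT hearts 8.55, 8.97 and 9.16. No P30 array came near the newborn ones, and the difference of 1.01 ± 0.09 (SE, n = 6 per group) was a 2.01-fold rise (limma adjusted p = 2.89e-09). Mrps21, a small-subunit protein with a bacterial homologue, rose by as much, from a newborn WT range of 9.79 to 10.39 around a median of 9.9 to a P30 WT range of 10.56 to 11.29 around 11.04 (difference 1.01 ± 0.13, limma adjusted p = 3.08e-07). Its groups were also apart, although one newborn WT array reached 10.39.

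**Figure D1:**
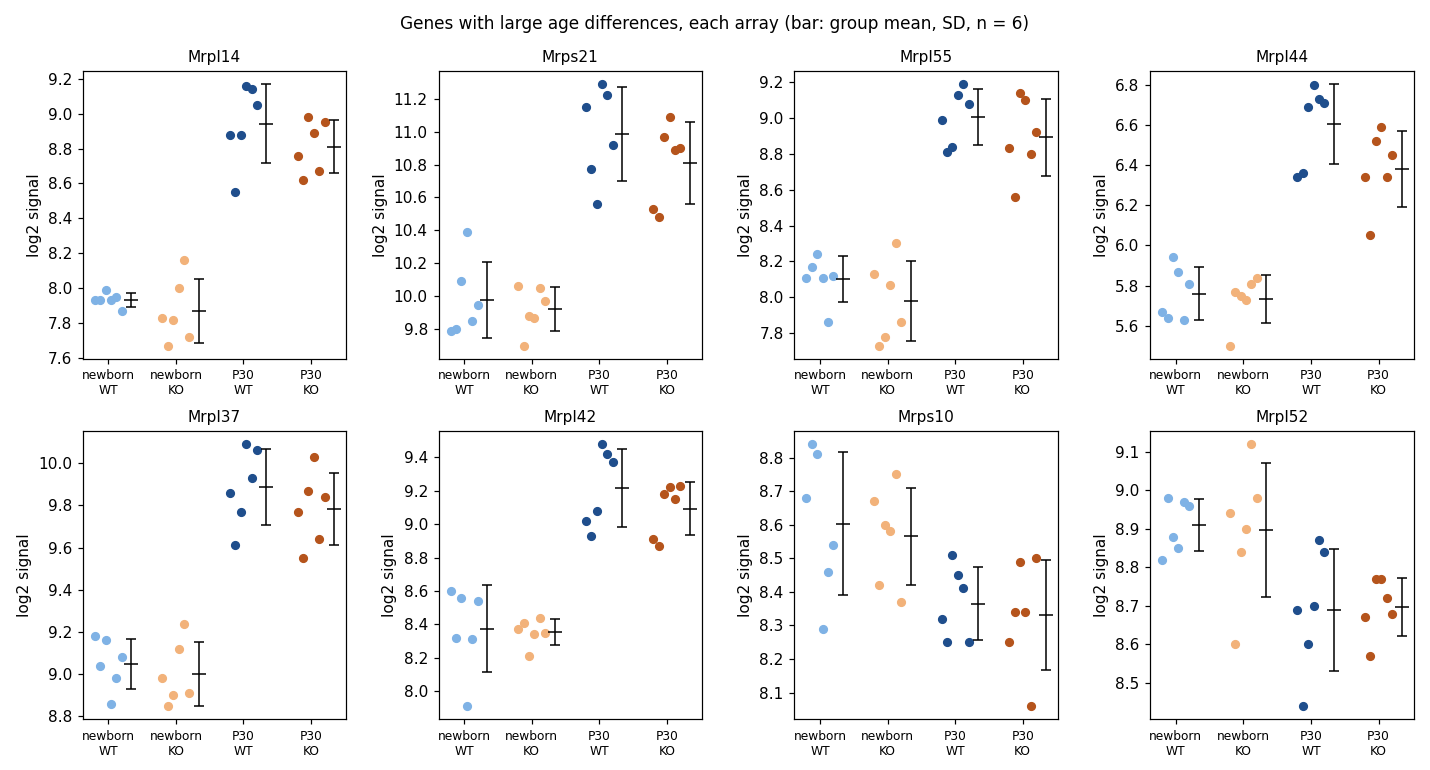
Signal of 8 genes on each of the 24 arrays (vertical axis, log2 signal; horizontal axis, the 4 groups; points, single arrays; bars, group mean and SD, n = 6). Mrpl14, Mrps21, Mrpl55, Mrpl44, Mrpl37 and Mrpl42 lie higher in all P30 arrays than in all newborn arrays of either genotype, and Mrps10 and Mrpl52 lie lower at P30 on average with overlapping groups.

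Further proteins of the large subunit followed. Mrpl55 ran from 7.86 to 8.24 (median 8.12) in newborn WT and from 8.81 to 9.19 (median 9.04) in P30 WT hearts, a difference of 0.91 ± 0.10. Mrpl44, which has the fold of a ribonuclease III and is mutated in a human infantile cardiomyopathy, ran from 5.63 to 5.94 (median 5.74) and from 6.34 to 6.8 (median 6.7), a difference of 0.85 ± 0.09. Mrpl37 and Mrpl42, both without a bacterial homologue, rose by 0.84 ± 0.09 and 0.84 ± 0.11, and Mrpl30, a homologue of a bacterial protein, by 0.80 ± 0.08. The largest limma adjusted p among these 5 genes was 5.11e-07, and none had overlapping groups. Mrps36 carries a ribosomal name but is now known as a component of the 2-oxoglutarate dehydrogenase complex of the citric acid cycle. It rose by 0.82 ± 0.11, from a newborn WT median of 7.22 (6.52 to 7.38) to a P30 WT median of 7.95 (7.74 to 8.12).

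The rise was shared by both subunits and by old and new proteins of the particle. Of 29 large-subunit proteins with a bacterial homologue 24 were higher and 0 lower (median difference 0.44), and of 19 large-subunit proteins found in mitochondria only, 12 were higher and 1 lower (median 0.50). Of 15 small-subunit proteins with a bacterial homologue 11 were higher and 1 lower (median 0.38), and of 10 mitochondria-specific ones 8 were higher and 0 lower (median 0.43). Mrps18a and Mrps18b were counted here as mitochondria-specific, although they are homologues of a bacterial protein, as described below. The subgroups were not tested against each other.

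Genes with a known separate role had unequal estimates, and differences between these genes were not tested. Mrpl45, the anchor of the ribosome at the inner membrane, rose by 0.64 ± 0.11 (P30 WT 8.38 to 8.85, newborn WT 7.78 to 8.20). Mrpl3, near the peptidyl transferase centre and mutated in human cardiomyopathy, rose by 0.31 ± 0.07, and Mrpl12, the stalk protein that recruits translational GTPases, by 0.32 ± 0.10. Mrpl3 still separated the ages (newborn WT 9.53 to 9.83, P30 WT 9.87 to 10.15), while Mrpl12 overlapped (9.12 to 9.54 and 9.45 to 9.81). Mrps22, another small-subunit gene mutated in human disease, differed by 0.24 ± 0.10 (limma adjusted p = 0.067) and Mrpl58, a peptidyl-tRNA hydrolase built into the large subunit, by 0.15 ± 0.09 (adjusted p = 0.167). Neither passed the threshold, although Mrps22 passed it in 7 of the other settings tried and Mrpl58 in 2.

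The bS18 family, 3 homologues of a single bacterial protein that occupy different places of the particle, also moved by unequal amounts. Mrps18a, which sits in the large subunit in spite of its name, rose by 0.52 ± 0.09 (limma adjusted p = 4.20e-05), and Mrps18b, in the small subunit, rose by 0.51 ± 0.09 (adjusted p = 5.95e-05). Mrps18c, closest to the bacterial protein in position, differed by 0.16 ± 0.09 (adjusted p = 0.182), with newborn WT arrays from 8.14 to 8.77 and P30 WT arrays from 8.57 to 8.94. Differences between these paralogues were not tested, and their probe sets share no scale.

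Both bright and dim probe sets of the family were among those that rose. Mrpl34 (P30 WT 10.80 to 11.04) and Mrps21 are among the brightest and both rose, whereas Mrpl23, a protein at the exit of the peptide tunnel, ran from 9.46 to 10.11 in newborn WT (median 9.74) and from 9.77 upward (median 9.84) in P30 WT hearts and did not pass the test (difference 0.10 ± 0.11, adjusted p = 0.489). Among the dimmest, Mrpl33 rose by 0.36 ± 0.06, Mrps14 by 0.72 ± 0.13 and Mrps12 by 0.78 ± 0.12.

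In the deposited values, but not after median centring, Mrps10 and Mrpl52 were lower at P30 in WT hearts. Mrps10, a small-subunit protein with a bacterial homologue, had newborn WT arrays from 8.29 to 8.84 (median 8.61) and P30 WT arrays from 8.25 to 8.51 (median 8.36), a difference of -0.24 ± 0.09 (limma adjusted p = 0.0368) that was not called after median centring (0.141) or a new quantile normalization (0.0814). Mrpl52, a mitochondria-specific protein of the large subunit, ran from 8.82 to 8.98 (median 8.92) and from 8.44 to 8.87 (median 8.69), a difference of -0.22 ± 0.08 (adjusted p = 0.0184) that was not called after median centring (0.148). Both overlapped between the ages. Without array 2 of P30 WT, which had the lowest Mrpl52 signal (8.44), the adjusted p was 0.0744 for Mrps10 and 0.0589 for Mrpl52, and 0 members were lower. Mrps10 also missed the threshold without newborn WT array 1 (0.072), 2 (0.103) or 3 (0.0934) and without P30 WT array 1 (0.0633) or 6 (0.0756).

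KO hearts showed the same counts and the same median difference. Of the 74 genes 56 were higher and 2 lower at P30 than in newborn KO hearts, whereas 34.0% of all genes were higher and 25.0% lower, and the median difference was 0.43 beside 0.10 over all genes. The 6 P30 KO arrays lay above the 6 newborn KO arrays for 31 genes, against 15.9% of all genes, and wholly below for 0, against 15.1%. The largest differences were again those of Mrpl14 (0.95 ± 0.09), Mrpl55 (0.91 ± 0.10), Mrps21 (0.89 ± 0.13) and Mrps36 (0.79 ± 0.11), each with the groups apart. Mrpl14 ran from 7.67 to 8.16 (median 7.82) in newborn KO and from 8.62 to 8.98 (median 8.83) in P30 KO hearts. Mrps10 (-0.23 ± 0.09, limma adjusted p = 0.0346) and Mrpl52 (-0.20 ± 0.08, adjusted p = 0.0296) were again the genes that fell, and both remained called after centring and quantile normalization in this genotype. With the mean of its 3 probe sets Mrps10 was not called (adjusted p = 0.511), and leaving out 1 array ended its call in 6 cases (newborn KO 1, 3, 4 or 5 and P30 KO 1 or 5, adjusted p 0.0522 to 0.0981) and that of Mrpl52 in 4 (newborn KO 1, 5 or 6 and P30 KO 2, 0.0517 to 0.0863).

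The age differences of WT and KO hearts rest on different arrays. Their p-values share the spread of each gene, which was estimated from all arrays together, so the calls in WT and KO are not independent. Mrps22, for example, was called in WT hearts when newborn KO array 5 was left out (limma adjusted p = 0.0463). In both genotypes 52 genes were higher and 2 lower, and 12 were called in neither. Mrpl10, Mrps2, Mrpl57 and Mrpl20 passed in WT alone, and Mrpl27, Mrpl49, Mrpl47 and Mrpl22 in KO alone. For none of the 8 did the difference between genotypes pass its own test. Over the family that difference passed for 0 of 74 genes, beside 0.0106% of all genes, and 1 gene of the family and 12.9% of all genes had an unadjusted p under 0.05. Its median size was 0.06, its largest 0.45 (Mrps12), and the median half-width of its 95% interval 0.28. It was under 0.1 for 56 genes and under 0.25 for 71, and 1 interval, that of Mrps12, did not include 0. Without both newborn arrays numbered 4 the difference again passed for 0 members. Over all genes it then passed as positive for 51 and as negative for 28.

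**Figure D2:**
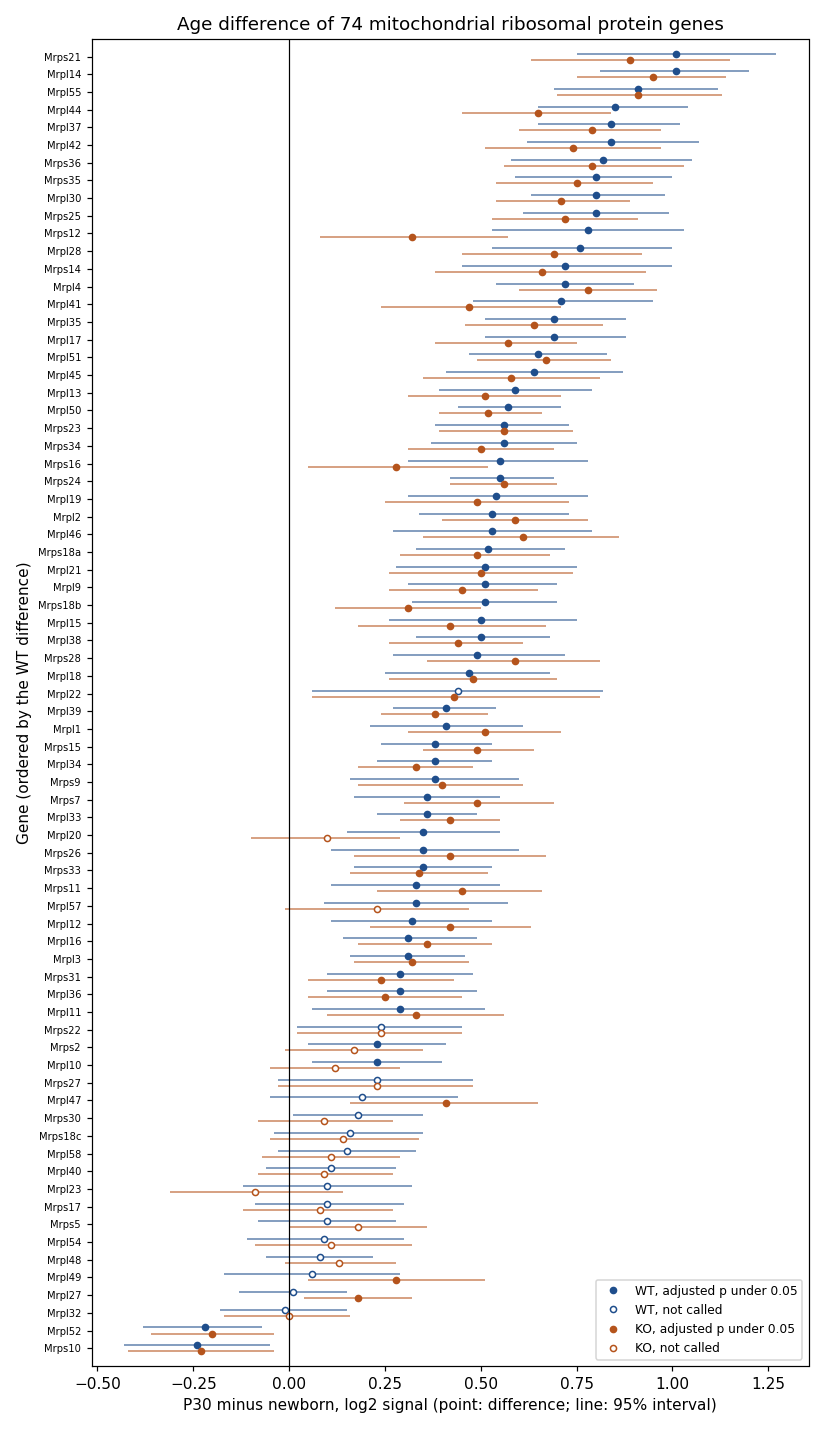
P30 minus newborn difference of each of the 74 genes in WT (blue) and KO (orange) hearts on the log2 scale, ordered by the WT difference. Points are differences, lines their 95% intervals, and filled points have an adjusted p under 0.05. In each genotype 56 filled points lie to the right of 0 and 2, Mrpl52 and Mrps10, to the left, and Mrps12 shows the widest gap between genotypes.

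Averaged over the 74 genes, each array gave a single value. It lay between 7.86 and 8.16 in newborn WT (8.03 ± 0.12, SD, n = 6), between 7.82 and 8.12 in newborn KO (7.96 ± 0.11), from 8.27 to 8.56 in P30 WT (8.47 ± 0.11) and from 8.19 to 8.51 in P30 KO hearts (8.37 ± 0.14). The ages did not overlap in either genotype, and the genotypes overlapped at both ages. Complex I, the respiratory chain complex with the most nuclear-encoded subunits, moved in the same direction, with 33 of 34 subunits higher in WT and in KO hearts (median difference 0.55 in each). The cytosolic ribosome moved the other way on balance. Of its 73 protein genes 2 were higher and 35 lower in WT hearts (median -0.17), and 3 were higher and 47 lower in KO hearts (median -0.23). The largest rise among them was that of Rpl3l, the striated-muscle paralogue of Rpl3, by 4.51 ± 0.14 in WT hearts.

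**Figure D3:**
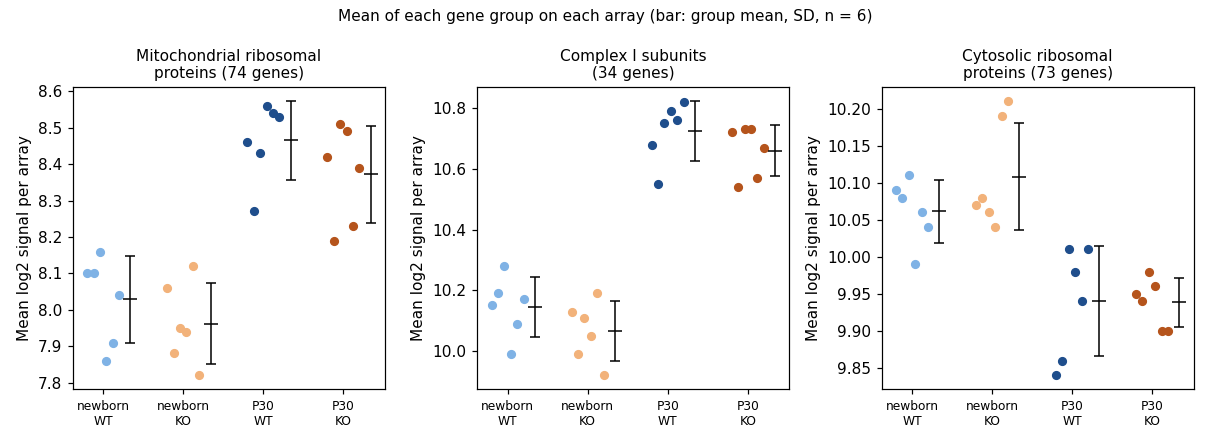
Mean log2 signal per array of the 74 mitochondrial ribosomal protein genes, 34 complex I subunit genes and 73 cytosolic ribosomal protein genes (vertical axes, log2 signal with separate ranges; points, arrays; bars, group mean and SD, n = 6). The P30 arrays lie above the newborn arrays in the first and second panels, 8.19 to 8.56 against 7.82 to 8.16 in the first, and the cytosolic set is lower at P30 on average.

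Over all genes 19.2% were higher and 27.9% lower in WT hearts. Other genes needed to build or run the particle were more often higher than lower. Of the proteins that belong to it under other names, the 3 measured by probe sets of their own were higher in WT hearts: Ptcd3, a pentatricopeptide repeat protein of the small subunit, by 0.70 ± 0.09, Chchd1 by 0.80 ± 0.11 and the GTP-binding Dap3 by 0.24 ± 0.06. Of 14 translation factors 9 were higher and 1 lower, among them Taco1, which activates translation of cytochrome oxidase subunit I (0.94 ± 0.11), Gfm2, which splits ribosomes after termination (0.79 ± 0.08), the elongation factor Tufm (0.71 ± 0.09) and the initiation factor Mtif2 (0.46 ± 0.09). Of 23 assembly and ribosomal RNA modification factors 14 were higher and 1 lower, with the GTPases Mtg2 (0.89 ± 0.08) and Mtg1 (0.73 ± 0.10), Mterf2 (0.68 ± 0.10) and the pseudouridine synthase Rpusd4 (0.56 ± 0.10) of smallest p.

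Of 16 mitochondrial tRNA synthetases 10 were higher and 2 lower in WT hearts. Cars2 (0.82 ± 0.08), Tars2 (0.69 ± 0.08) and Yars2 (0.60 ± 0.08), for cysteine, threonine and tyrosine, rose, while Ears2, for glutamate, fell by 0.97 on the log2 scale (SE 0.10), with all P30 WT arrays below all newborn ones. Among 19 genes of mitochondrial DNA expression and its nuclear regulators 14 were higher and 3 lower. The muscle regulator Perm1 rose by 1.40 ± 0.10, the transcription factor Tfb2m by 0.54 ± 0.06 and the elongation factor Tefm by 0.80 ± 0.10. The genes that fell were Myc (-2.03 ± 0.21), Nrf1 (-0.49 ± 0.07) and Gabpa (-0.38 ± 0.07), the latter 2 encoding the factors named above for the promoter motifs. In KO hearts, counts for these lists were 3 of 3, 11, 16, 10 and 11 higher and 0, 1, 1, 3 and 4 lower, in the order given here.

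Marker transcripts of several cell types also changed with age, and in bulk tissue fewer cells of a type and less RNA per cell cannot be told apart. In WT hearts 7 of 10 atrial markers were lower and 1 higher at P30 (median difference -1.82). There 6 of 10 fibroblast markers were lower (-1.12), 8 of 9 epicardial markers were lower (-1.91) and 10 of 11 leukocyte markers were higher (0.82). Of 10 endothelial markers 3 were higher and 6 lower, and of 10 smooth muscle markers 2 were higher and 2 lower. Of 10 cardiomyocyte markers 7 were higher and 1 lower (-4.34 to 1.21, median 0.20), and 6 were higher and 1 lower in KO hearts, so that their mean signal, 11.86 to 12.14 over all arrays, averages changes in both directions. In KO hearts 3 of 10 atrial and 4 of 10 fibroblast markers were lower, with 1 of each higher. Of the epicardial markers 6 of 9 were lower, while 9 of 11 leukocyte and 5 of 7 adipocyte markers were higher. Of 10 endothelial markers 2 were higher and 3 lower, and of 10 smooth muscle markers 6 were higher and 1 lower. Atrial markers were bright on many arrays labelled as ventricle. The mean of the 10 lay between 7.95 and 9.61 in newborn WT hearts and between 8.62 and 9.69 in newborn KO hearts, and its range was wider at P30, with 5.96 to 9.31 in WT and 6.55 to 9.98 in KO hearts. It was 9.31 on P30 WT array 2 and 5.96 to 8.17 on the others of the group, and it was highest on P30 KO arrays 2 (9.98) and 5 (9.91). The same arrays had the lowest family means of their groups, 8.27, 8.19 and 8.23. Arrays 2 of P30 WT and P30 KO also had the brightest adipocyte markers, and without both arrays 59 members were higher and 0 lower in WT and 60 higher and 2 lower in KO hearts. The part of the cell mixture in the age differences was not tested.

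In newborn hearts the family was compared between genotypes, to see whether the loss of executioner caspases changed it at birth. With limma 0 of 74 genes passed, as did 0% of all genes tested with all arrays, and at an unadjusted p under 0.05 there was 1 gene, beside 9.07% of all genes. The differences KO minus WT ran from -0.21 to 0.16 with a median of -0.07, beside -0.05 over all genes. Of the 74 genes 64 (86.5%) were below 0, against 68.8% of all genes. The count over all genes rested on the arrays numbered 4: without both, 117 genes were higher and 365 lower in KO hearts, and leaving out the WT one gave 12 and 61 and the KO one 14 and 35. Without both, 0 of the 74 members passed and the family median was -0.10, and leaving out any 1 array kept that median between -0.11 and -0.04. Mrps24, a small-subunit protein with a bacterial homologue, had the smallest p: newborn WT arrays ran from 8.29 to 8.64 (median 8.47) and newborn KO arrays from 8.21 to 8.47 (median 8.34), a difference of -0.14 ± 0.07 (limma adjusted p = 0.53). Mrpl49 had the largest difference, -0.21 with a 95% interval from -0.44 to 0.02, and newborn KO arrays from 8.04 to 8.76 overlapped WT arrays from 8.37 to 8.97, and without both arrays numbered 4 its difference was -0.33 ± 0.11 (adjusted p = 0.147). Mrps15 (-0.14), Mrpl39 (-0.13) and Mrps7 (-0.16) were next by p, none with an adjusted p under 0.584.

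At P30 the genotype difference remained small for nearly the whole family. With limma 0 of 74 genes were higher and 1 lower in KO hearts, beside 0.670% and 0.351% of all genes (1.02% in either direction). The balance over all genes depended on scaling, with 126 genes higher and 66 lower in the deposited values, whereas centring the arrays on their medians gave 84 and 204. It also depended on single arrays, with 648 higher and 158 lower without P30 KO array 3 and 621 higher and 163 lower without P30 WT array 2. The median difference was -0.09, beside 0.03 over all genes, and 65 of 74 genes were below 0, against 39.8% of all genes. Both subunits shared this lean, with 41 of 46 Mrpl and 24 of 28 Mrps genes below 0, and so did complex I, with 32 of 34. At an unadjusted p under 0.05 there were 7 genes, 15.0% being the share of all genes. Beside it, 8 of 10 atrial markers had an unadjusted p under 0.05 (median difference 1.42, 0 called after adjustment), as had 8 of 10 fibroblast (median 0.63), 5 of 9 epicardial (0.90) and 6 of 10 smooth muscle markers (0.30), again with 0 called. Of the 24 genes with very long coding sequences 13 were lower in KO hearts (median -0.27). The part of these in the lean of the family was not tested. In a fit of the 12 P30 arrays with the atrial marker mean as a covariate the family median was 0.01, and 0 members were called. The covariate itself differed between genotypes, with a mean of 7.05 in P30 WT and 8.74 in P30 KO hearts. This fit therefore cannot tell the covariate and the genotype apart.

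**Figure D4:**
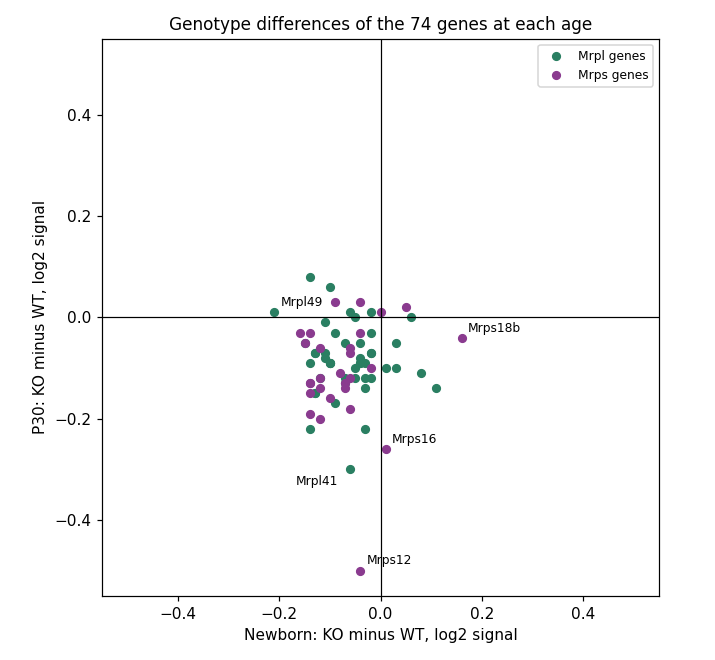
KO minus WT difference of each of the 74 genes in newborn hearts (horizontal axis) and at P30 (vertical axis), both on the log2 scale, Mrpl genes in green and Mrps genes in purple. Most points lie below and to the left of 0 within 0.25 of it, and Mrps12 stands lowest at -0.50.

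The 1 member called was Mrps12, the small-subunit protein of the decoding centre, whose bacterial homologue sets the accuracy of translation. Its signal in P30 WT hearts was 5.93, 5.60, 6.08, 6.46, 6.24 and 6.48 on arrays 1 to 6, and in P30 KO hearts 5.68, 5.56, 5.89, 5.76, 5.37 and 5.54. Of the WT arrays 5 lay above all KO arrays, and WT array 2, the one with bright atrial and adipocyte markers, lay among the KO arrays. The means were 6.13 ± 0.34 and 5.63 ± 0.18 (SD, n = 6 each), a difference of -0.50 ± 0.12, or 0.709-fold (limma adjusted p = 0.0418). In newborn hearts WT (5.22 to 5.52) and KO (5.11 to 5.52) overlapped almost fully, at a difference of -0.04. Mrps12 rose with age in both genotypes, by 0.78 ± 0.12 in WT and 0.32 ± 0.12 in KO hearts (adjusted p = 0.0233), and the difference of these rises, -0.45 ± 0.17, did not pass (adjusted p = 0.295).

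The Mrps12 call was close to the threshold. Leaving out 1 array ended it for 14 of 24 arrays (P30 WT 3, 4, 5 or 6, P30 KO 1, 2, 5 or 6, newborn WT 1, 2, 5 or 6 and newborn KO 3 or 4), with an adjusted p from 0.0502 to 0.104, leaving out the newborn arrays numbered 4 gave 0.0507, a fit of the 12 P30 arrays alone gave 0.227, and the atrial covariate gave a difference of -0.28 with an adjusted p of 0.613. Without arrays 2 of both P30 groups the difference was -0.59 and the adjusted p 0.00944. Next by p at P30 came Mrpl41, a mitochondria-specific protein of the large subunit (P30 WT 7.60 to 8.25, P30 KO 7.34 to 8.07, difference -0.30 ± 0.11, adjusted p = 0.194), Mrpl44 (-0.22 ± 0.09, adjusted p = 0.251), Mrpl13 (-0.22 ± 0.10) and Mrpl39 (-0.15 ± 0.07). Mrpl41 passed in one other setting, without P30 WT array 2 (adjusted p = 0.0441). For the difference between ages, Mrpl20 (-0.25), Mrpl27 (0.17), Mrps16 (-0.26) and Mrps18b (-0.20) followed Mrps12, the smallest adjusted p among these 4 being 0.434.

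**Figure D5:**
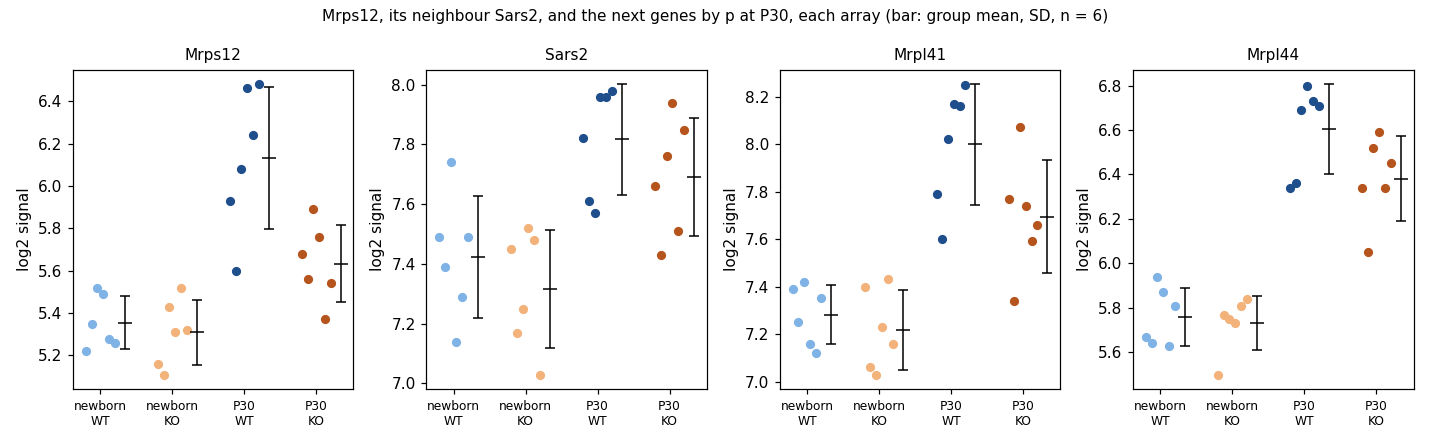
Signal of Mrps12, its divergent neighbour Sars2, Mrpl41 and Mrpl44 on each array (vertical axes, log2 signal; points, arrays; bars, group mean and SD, n = 6). P30 KO arrays of Mrps12 lie between 5.37 and 5.89 and P30 WT arrays between 5.60 and 6.48, whereas Sars2, Mrpl41 and Mrpl44 overlap more widely between the P30 genotypes.

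Several genes of the family start beside another gene that is read in the opposite direction. A divergent neighbour within 1000 bases was annotated for 25 of the 65 genes with a promoter (38.5%), against 14.2% of the genes tested. Mrpl46 and Mrps11, whose starts lie 42 bases apart, are each other's neighbour and both rose in WT hearts (0.53 ± 0.12 and 0.33 ± 0.10). Sars2, the mitochondrial seryl-tRNA synthetase, starts 147 bases from Mrps12. It rose with age by 0.39 ± 0.11 in WT and 0.37 ± 0.11 in KO hearts and had P30 arrays from 7.57 to 7.98 in WT and from 7.43 to 7.94 in KO (difference -0.13 ± 0.11, limma adjusted p = 0.638).

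Most other neighbours did not follow the family. For the 20 pairs whose neighbour was tested and lies outside it, 12 members rose and 0 fell in WT hearts (median 0.41), whereas 5 neighbours rose and 9 fell (median -0.20). Of the 12 members that rose, 3 had a neighbour that rose, 5 one that fell and 4 one that was not called. Mrpl57 rose by 0.33 ± 0.12 and Ska3, a kinetochore gene 76 bases away, fell by 2.20 on the log2 scale. Mrpl51 rose by 0.65 ± 0.09 while the condensin gene Ncapd2, 614 bases away, fell by 1.06, and Mrpl50 rose by 0.57 ± 0.07 while Zfp189, 93 bases away, fell by 0.59. Mrpl14 with Tmem63b, 131 bases away, and Mrpl37 with Cyb5rl, 128 bases away, rose together with their neighbours, the partners by 0.41 and 0.56.

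Set beside the promoter motifs, the age differences were as follows. Of 14 genes with the NRF1 letters 13 rose in WT and 12 in KO hearts, with medians of 0.57 and 0.51. Of 23 genes with the ETS letters 16 rose and 1 fell in WT (median 0.38), and 17 rose and 1 fell in KO hearts (median 0.33). Of 32 genes with neither, 23 rose and 1 fell in WT (median 0.34), and 22 rose and 1 fell in KO hearts (median 0.43). These classes overlap in 4 genes that hold both motifs, and no test was made between them.

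For 12 genes 1 or 2 further probe sets gave an internal comparison, here with p-values adjusted over all probe sets of the array. The 2 sets of Mrpl51 rose by 0.65 and 0.99 in WT hearts and those of the small-subunit gene Mrps33 by 0.35 each. The 2 sets of Mrpl23 differed by 0.10 and 0.11, and those of Mrps30, a protein now placed in the large subunit, by 0.18 and -0.13, neither called (adjusted p = 0.106 and 0.214). Among genes called in 1 genotype, the second sets were not called there. They differed by 0.12 for Mrpl10 in WT (limma adjusted p = 0.248), and by 0.01 for Mrpl27 (0.971) and 0.03 for Mrpl47 (0.878) in KO hearts. The 3 sets of Mrps10 were all lower in WT hearts (-0.24, -0.34 and -0.24), with an adjusted p under 0.05 for the second alone (0.0036), and in KO hearts they differed by -0.23, 0.04 and 0.00. Genes seen only through shared probe sets were mixed: Mrps6 with Slc5a3 rose by 0.45 in WT and 0.74 in KO hearts and Mrpl53 with Ccdc142 by 0.30 and 0.24, Mrpl24 with Rrnad1 rose by 0.24 in WT and differed by 0.13 in KO hearts, and Mrpl43 with Sema4g differed by 0.21 and 0.19 without passing. Shared sets of members that also had their own set went both ways in WT hearts. Mrps36 with Sgk3 differed by 0.78, Mrpl41 with Dph7 by -0.66 and 0.51, Mrpl19 with Gcfc2 by -0.63 and Mrpl48 with Rab6a by -0.03. Which of the paired genes gave these signals cannot be told apart.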

How the data were processed

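Ventricle RNA of 24 samples was profiled on Affymetrix arrays. The deposited values are log2 signals per probe set that the authors made with RMA, which corrects background, quantile-normalizes the arrays and summarizes the probes, and the submitters' processing notes name oligo 1.22, limma 3.14 and R 2.15. RMA sets all arrays to a common distribution, so differences are relative to the other transcripts and not absolute amounts. Signals of different probe sets are not comparable as levels, and no depth exists for arrays, whose number limits the precision. Array medians ran from 4.24 to 4.50, 0 of 276 array pairs were identical and the mean correlation of an array with its group was 0.986 to 0.996.

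Of 35017 probe sets, 21118 name 1 gene, and the brightest per gene gave 18819 genes. Gene names came from the platform annotation, with 21085 probe sets matched to RefSeq (GRCm38.p6) by Entrez identifier. Limma 3.58.1 (R 4.3.3) was fitted to all 24 arrays with 1 mean per group, 20 residual degrees of freedom and Benjamini-Hochberg adjustment over all genes, with a call at an adjusted p under 0.05. The 5 comparisons were age in WT, age in KO, genotype in newborn, genotype at P30 and the difference of the genotype effects. The procedure was tested on simulated data. The genes, lists, tests and the rule for named genes were chosen with earlier results of these data known. The rule took the 8 largest rises and falls with age in WT and the 4 in KO among called members, the 5 smallest p of each other comparison, the 3 brightest and 3 dimmest, the bS18 family, members with a known role and up to 4 genes per related list. Neighbouring genes, Mrpl19, Mrpl36, Mrpl46, Mrpl48, Mrps11, Mrpl50, Mrpl51, Mrpl57, Mrps33 and genes called in 1 genotype were named after their values were seen. Nrf1, Gabpa and Rpl3l were also named outside the rule. No batch or scan date is given in the sources used here, and the separate methods file for the array statistics was not used here.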

Additional observations from a re-analysis of the deposited data

Results flagged for a closer look

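Within groups of 6, single arrays were checked for a gap to their nearest neighbour above Dixon's critical share of the group's range, which chance produces in about 1 in 20 groups, and 9 of 216 groups showed one. Among the members, Mrpl55 was low on newborn WT array 5 (7.86, the others 8.11 to 8.24), Mrpl44 on newborn KO array 1 (5.50, the others 5.73 to 5.84) and Mrps18c on newborn WT array 4 (8.14, the others 8.55 to 8.77). Mrps16 was high on newborn WT array 6 (7.03, the others 6.69 to 6.81) and on newborn KO array 5 (7.23, the others 6.63 to 6.82), where Mrpl12 was also high (9.70, the others 9.04 to 9.25). Among the related genes, Mterf2 was high on newborn WT array 3 (5.48), and on newborn WT array 4 Myc was high (8.41) and Tefm low (5.76). Myc on newborn WT array 4 lay among the other newborn KO arrays (7.99 to 8.54), and on newborn KO array 4 (7.06) it lay among the other newborn WT arrays (6.98 to 7.41). All of these arrays were newborn ones.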

How the results depend on the processing

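Over 36 to 38 alternatives per comparison, the counts of members higher with age stayed within 1.5 times their main value except with a fold change of at least 1.5 (20 in WT, 18 in KO). Of 64 results for single genes, 2291 values kept their direction and call, 64 lost the call, 13 gained one and 0 changed sign. The family medians near 0 did change sign: that of the P30 genotype difference went from -0.09 to 0.01 with the atrial covariate, and that of the difference between ages ranged from -0.10 to 0.01.

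The members lower with age were fewer under other settings. In WT there were 0 with a 1.5-fold threshold, an adjusted p under 0.01, median centring or without arrays 2 of both P30 groups (an alternative chosen after seeing the data), and 1 with a new quantile normalization, all probe sets or only the 12 arrays. In KO there were 0 with the 1.5-fold or 0.01 threshold and 1 with the mean of probe sets. Leaving out 1 array gave 0 to 2 lower in each genotype, 52 to 58 higher in WT and 50 to 60 higher in KO. The member lower in KO at P30, Mrps12, was lost (0 members) with the 1.5-fold or 0.01 threshold, all probe sets, only the 12 arrays, the atrial covariate or without newborn arrays 4, and leaving out 1 array gave 0 to 2.

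The replicate numbers are shared between groups but were not taken to pair the samples, since for each of the 6 pairs of groups at least 1 same-numbered pair correlated below 0 (lowest values -0.438 to -0.108, highest 0.119 to 0.645). The nearest to pairing were newborn KO with P30 WT, with 5 of 6 correlations over 0.1, and P30 WT with P30 KO, with 3 of 6, and in each 4 arrays correlated best with their own number. With a replicate block, 56 members were higher and 2 lower with age in WT and in KO, 0 differed in newborn hearts and 1 was lower in KO at P30.

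The causes of these changes were not tested. The number of arrays, 6 per group, limits what small differences can be called, and genotype could not be checked from the signals.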
